A study of Mus musculus with 14 samples.

Results

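Macrophage nuclei of the colon muscularis, the smooth muscle wall of the large intestine, were chosen by the measured UMIs of 5 transcripts in 2 single-nucleus RNA libraries. A nucleus was taken where Csf1r, Mrc1, Cd163, Adgre1 and F13a1 together had at least 2 UMIs (unique molecular identifiers, 1 for each captured RNA molecule) and Epcam, an epithelial gene, had none. Of 4533 nuclei kept with at least 300 genes and at most 5% mitochondrial UMIs, 202 met the rule. They were 53 of 2837 nuclei in the library labelled WT and 149 of 1696 nuclei in the library labelled KO.

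Both nuclei libraries came from C57BL/6 colon, the WT with the genotype WT mTmG and the KO with the genotype Carmn iKO; mTmG is a 2-colour membrane reporter allele, and Carmn is a long noncoding RNA of smooth muscle. Beside these 2 libraries, the study has 12 bulk RNA libraries, 3 each of WT mTmG and Carmn iKO from colon and from jejunum muscularis. The study is about visceral smooth muscle contraction, and its comparison is Carmn iKO against WT mTmG. The labels used here do not state ages, a treatment, how many animals went into a library, or how, where and when Carmn was deleted. Each genotype had 1 nuclei library, so differences between them have no replicate check. Intervals on UMI sums (exact Poisson) and on shares (exact Clopper-Pearson) are 95% intervals that cover counting error only.

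Macrophages of the gut muscle lie between the muscle layers and around the nerve plexus, where they take up debris and exchange signals with enteric neurons. They depend on signalling through the Csf1r receptor, whose ligand Csf1 is made in the gut wall. Long-lived resident macrophages and cells newly arrived from blood monocytes differ in scavenger receptors, antigen-presenting MHC class II molecules and the chemokine receptor Ccr2.

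Carmn was at 662 CPM (UMIs scaled to a total of 1e6) in the other WT nuclei and at 232 CPM in the other KO nuclei. In macrophage nuclei it was at 428 CPM in WT (87 UMIs in 9 nuclei) and 124 CPM in KO (89 UMIs in 21 nuclei). Only 19 of these WT UMIs and 5 of these KO UMIs lay in macrophage nuclei of at most 5000 UMIs. The rest lay in deeper barcodes, described below, so these levels are not read as Carmn made by macrophages. In bulk colon it went the other way, at 247, 167 and 343 CPM in the WT libraries t1, t6 and t7 and at 460, 305 and 709 CPM in the libraries labelled KO m1, t4 and t6. The bulk counts therefore go against the label, and the bulk libraries are named by their labels throughout. The part of the gene that was deleted is not known here.

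The libraries shared 11 cell barcodes, 4 of them kept in both, and no barcode was a macrophage nucleus in both. A small number of very deep barcodes carried most of the macrophage UMIs. In WT, 7 of 53 members had more than 5000 UMIs and held 63.9% of the members' 203391 UMIs. In KO, 28 of 149 members did and held 78.7% of 717510 UMIs, with a highest total of 100783 UMIs. Of these 28, 19 were called doublets. Levels are therefore also given over the 46 WT and 121 KO members of at most 5000 UMIs, a limit chosen after the data were seen, with median depths of 1183 and 954 UMIs. Depths over 5000 UMIs were found in 10.2% of all WT nuclei and in 18% of all KO nuclei.

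Of the genes that define the nuclei, Mrc1, F13a1 and Cd163 are shown by the 300 bases around a transcription start listed in RefSeq (GRCm38.p6, 250 bases before to 50 after the start). Their KO to WT ratios below were the highest of the rule genes, and the promoter set used held no window for Csf1r or Adgre1. Capitals mark GAGGAAG or its reverse complement, a core that the myeloid factor PU.1 (Spi1) is known to bind.
Mrc1 (chr2:14229164-14229463, plus strand): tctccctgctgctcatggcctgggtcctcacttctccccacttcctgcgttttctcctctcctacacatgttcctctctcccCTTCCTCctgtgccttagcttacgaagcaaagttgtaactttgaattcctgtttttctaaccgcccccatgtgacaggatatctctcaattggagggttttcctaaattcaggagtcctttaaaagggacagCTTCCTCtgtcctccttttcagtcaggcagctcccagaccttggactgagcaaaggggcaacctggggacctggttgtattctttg
F13a1 (chr13:37049164-37049463, minus strand): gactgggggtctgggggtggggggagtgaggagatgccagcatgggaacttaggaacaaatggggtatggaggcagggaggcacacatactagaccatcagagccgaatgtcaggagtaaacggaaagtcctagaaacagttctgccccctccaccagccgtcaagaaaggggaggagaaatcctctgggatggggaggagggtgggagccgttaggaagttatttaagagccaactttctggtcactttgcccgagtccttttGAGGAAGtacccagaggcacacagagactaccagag
Cd163 (chr6:124304401-124304700, plus strand): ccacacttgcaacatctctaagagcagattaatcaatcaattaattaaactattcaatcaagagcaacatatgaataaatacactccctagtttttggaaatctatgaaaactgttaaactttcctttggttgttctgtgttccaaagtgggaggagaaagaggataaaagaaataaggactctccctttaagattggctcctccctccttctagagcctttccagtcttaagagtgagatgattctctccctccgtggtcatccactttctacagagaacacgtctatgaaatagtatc
The Mrc1 window holds 2 matches on the opposite strand, starting 168 and 36 bases before the start site. The F13a1 window holds 1 match on its own strand, beginning at base 15 of a transcript from the start shown. That start lies inside the gene model, whose 5' end is at 37050244. The window at a second listed start, further upstream, was not shown. The Cd163 window holds none, which says only that these letters are not in it. Searched on both strands, the motif was in 13.6% of 32851 promoter windows. Of the 135 genes at least 4-fold higher in macrophage than in other nuclei (described below), 104 had a window and 36 of these (34.6%) held the motif, against 17.5% of the 4568 tested genes with a window. A match is a description of sequence, and no binding was measured.

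The genes of the rule were read as follows, as values that chose the nuclei and not as results. Mrc1 (ENSMUSG00000026712, chr2:14229392-14332057, plus strand, GRCm38), the mannose receptor, had 89 UMIs in 41 of 53 WT members and 584 UMIs in 128 of 149 KO members. Adgre1 (ENSMUSG00000004730, chr17:57358691-57483527, plus strand), which encodes the macrophage antigen F4/80, had 45 UMIs in 27 WT and 245 UMIs in 96 KO members. F13a1 (ENSMUSG00000039109, chr13:36867178-37050244, minus strand), the A subunit of the transglutaminase factor XIII, had 27 UMIs in 11 WT and 308 UMIs in 68 KO members. The receptor Csf1r had 27 UMIs in 21 WT and 72 UMIs in 49 KO members. Cd163 (ENSMUSG00000008845, chr6:124304656-124330527, plus strand), the haemoglobin-haptoglobin scavenger receptor, was the least often seen, with 8 UMIs in 4 WT and 99 UMIs in 19 KO members. The annotation places Mir511 within Mrc1 and the gene models Gm30489 and Gm49144 over F13a1, so reads could be shared there.

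Most members rested on few molecules. The median member had 3 rule UMIs in WT and 5 in KO, and 16 of 53 WT and 23 of 149 KO members had all of them in a single gene. Exactly 2 rule UMIs, the lowest value inside the rule, were held by 25 WT and 23 KO members. Exactly 1, just outside it, was held by 66 WT and 100 KO nuclei. Epcam kept out 12 WT and 9 KO nuclei that had enough rule UMIs.

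Macrophage genes that the rule did not use were found in most members. At least 1 UMI of 10 such markers (among them C1qa, Cd68, Mertk, Spi1 and Ptprc) was present in 46 of 53 WT members (86.8%) and in 144 of 149 KO members (96.6%). In nuclei with no rule UMI the share was 18.7% in WT and 27.4% in KO. At least 2 such UMIs were present in 58.5% of WT and 90.6% of KO members, against 6.94% and 12% of nuclei with no rule UMI. At exactly 2 rule UMIs the share with at least 2 outside UMIs was 44% in WT and 78.3% in KO. Macrophage genes outside the rule were thus present in most members of both libraries, and in a larger share of the KO members.

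Members with markers of other cells were counted. At least 2 UMIs of lymphatic endothelial genes (Mrc1 is also made by lymphatic endothelium) were seen in 7 WT and 13 KO members, and at least 5 UMIs of smooth muscle genes in 12 WT and 32 KO members. Nuclei with smooth muscle markers met 2 rule UMIs in 1.97% of cases in WT and 6.72% in KO, against 2.5% and 10.7% of nuclei without those markers, at higher median depth (2157.5 against 1318 UMIs in WT and 3142 against 1447 in KO). Some of the rule UMIs therefore lie in nuclei that also carry muscle RNA. Their part in the results was not tested.

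Macrophage nuclei made up 1.87% of kept WT nuclei (95% interval 1.4 to 2.44) and 8.79% of kept KO nuclei (7.48 to 10.2), a ratio of 4.7. The intervals do not overlap, but they leave out the variation between animals and between nuclei preparations, which 1 library per genotype cannot give. The share was lower in WT under each alternative that was run. With at least 3 rule UMIs it was 0.987% against 7.43%, and with at least 2 different rule genes 1.3% against 7.43%. Without Mrc1 in the rule it was 1.09% against 6.54%. With every nucleus thinned to 500 UMIs and 2639 WT and 1594 KO nuclei deep enough, it was 0.682% against 5.21%. With at most 5000 UMIs per nucleus it was 1.81% of 2548 WT nuclei and 8.7% of 1391 KO nuclei.

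**Figure D1:**
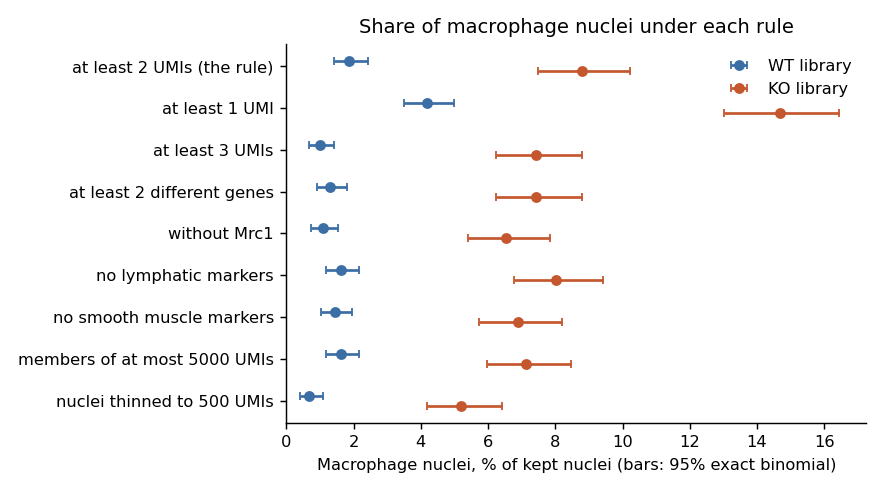
Share of kept nuclei that count as macrophage nuclei, in percent, in the WT library (blue) and the KO library (orange) under the rule and 8 other settings; points are shares and bars are 95% exact binomial intervals. The KO share lies above the WT share in each row, with 8.79% against 1.87% under the rule itself.

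Against the other nuclei of the same library, 135 of 5774 genes with at least 30 UMIs in macrophage nuclei (2.34%) were at least 4-fold higher in both libraries. With 1 library per genotype this is a threshold of size and not a test. Of the macrophage core list, 14 of 29 genes passed it, of complement and phagocytosis genes other than Mrc1 8 of 19, and of the MHC class II list 4 of 7. Of the resident and perivascular list 3 of 20 passed, of the lysosome list 2 of 15, and of the lists for inflammation (14 genes), tissue repair and growth factors (16), and lipid handling (11) none.

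Of the 20 genes with the highest ratios, by the lower of both libraries, the gene model Gm35154 came first, at 74.6-fold in WT and 45.5-fold in KO, before the rule genes Mrc1 and Adgre1. Sirpb1a, a signal-regulatory receptor of myeloid cells, was 40.2-fold higher than in other nuclei in WT and 46.8-fold higher in KO. Its close copy Sirpb1b was at 30.1-fold and 25-fold, and reads of these near-identical genes may have been split between them. Tlr8, an endosomal RNA sensor, was at 40.2-fold and 30.3-fold, and the scavenger receptor Msr1 at 26.8-fold and 35.8-fold. Aoah, the enzyme that inactivates bacterial lipopolysaccharide, was at 33-fold and 25.2-fold and had a UMI in 30.2% of WT and 63.1% of KO members. Among smooth muscle-marker nuclei outside the members, which should lack Aoah, 0.996% in WT and 2.84% in KO had a UMI, at median depths of 2153 and 2979 UMIs against 1401 and 1259 in members. The Fc receptor Fcgr3 was at 29.2-fold and 28.1-fold. Itgam, the CD11b integrin, was at 30.7-fold and 23.9-fold.

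The rest of the 20 were 3 rule genes (Mrc1, Adgre1 and F13a1), the lectins Clec4a1, Clec4a3 and Clec4b1, the membrane proteins Ms4a7 and Ms4a14, the chemokine Ccl12, the receptors Csf3r and Klra2, and the gene model Gm21188. Ccl12 had the widest gap between the libraries, at 161-fold in WT from 8 UMIs and 21.8-fold in KO from 23 UMIs. Csf3r, the receptor for the neutrophil growth factor G-CSF, was the single gene of 7 on the neutrophil list with a UMI in members. It was seen in 11.3% of WT and 25.5% of KO members, while S100a8, S100a9 and Ly6g had none.

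Members differed among themselves in resident and monocyte-type genes, as described in those of at most 5000 UMIs. Ccr2, the chemokine receptor of cells recruited from blood, had a UMI in 10 of 46 WT and 25 of 121 KO members. The scavenger receptor Stab1 had a UMI in 1 of the 10 WT members with Ccr2 and in 17 of the 36 without it. In KO it had one in 8 of 25 members with Ccr2 (32%) and in 65 of 96 without (67.7%). Stab1 was therefore less common beside Ccr2 in each library, at similar median depths (1234 and 1183 UMIs in WT, 1112 and 850.5 in KO). MHC class II genes were present in all 10 WT members with Ccr2 and in 27 of 36 without, and in KO in 84% and 70.8% of them.

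F13a1 marked a part of the members, 9 of 46 in WT and 53 of 121 in KO. In KO the members with F13a1 had Mrc1 at 4400 CPM and those without at 2220 CPM, while MHC class II genes were at 2340 and 2460 CPM. The share of KO members with a UMI of Mrc1 was close, 90.6% with F13a1 and 88.2% without. In WT Mrc1 did not differ in this way, at 1060 CPM with F13a1 and 1030 CPM without. Lyve1, a hyaluronan receptor of perivascular macrophages, had a UMI in 1 WT and 7 KO members. All 7 of these KO members had Stab1 and 6 had F13a1, but their median depth was 3457 UMIs against 888.5 in the others. These are sparse counts, and Mrc1 and F13a1 helped to choose the nuclei.

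Over all members, KO and WT levels differed at least 2-fold for 549 genes higher in KO (9.51% of 5774) and 273 lower in KO (4.73%), with a median log2 ratio of 0.0091. Scaled per nucleus in place of per UMI, the split was 932 higher and 123 lower. Several of the most extreme genes of this list sat mostly in 1 nucleus. The 8 highest in KO were Dpp6, Gm26871, Galntl6, Ralyl, Pcsk2, Galnt13, Fgf7 and Fam20a, each with 1 UMI in WT. Of the 297 KO UMIs of Dpp6, a subunit of neuronal potassium channels, 258 were in 1 nucleus, and of the 217 of Galntl6, 214 were. Fam20a, a secretory pathway pseudokinase, was spread more widely, over 18 KO nuclei with at most 13 of its 67 UMIs in 1. The 8 lowest were Car1, Gpnmb, Atp6v0d2, Muc2, Pcdh11x, Cd36, Spdef and Oit1. Of the 60 WT UMIs of Gpnmb, a lysosomal glycoprotein, 53 were in 1 nucleus, and all 29 of Atp6v0d2, a proton pump subunit, were.

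Cd36, a scavenger receptor and fatty acid transporter, was spread over nuclei. It had 34 UMIs spread over 11 of 53 WT members, with at most 8 in a nucleus, and 9 UMIs in 8 of 149 KO members, a KO to WT ratio of 0.075. In members of at most 5000 UMIs it was at 299 CPM in WT (22 UMIs in 9 nuclei) and 32.7 CPM in KO (5 UMIs in 5 nuclei), a ratio of 0.109 (0.0323 to 0.295). In the other nuclei of that depth Cd36 was 3.18-fold higher in KO. It stood 40.6-fold above other nuclei in WT members and 1.39-fold in KO members. Thinned to 500 UMIs, 4 of 49 WT members (8.16%) and 2 of 138 KO members (1.45%) had a UMI, and these intervals overlap.

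In members of at most 5000 UMIs, 283 of 1879 genes (15.1%) were at least 2-fold higher in KO and 190 (10.1%) at least 2-fold lower, with a median log2 ratio of 0.21. Macrophage genes lay on the higher side. Of the macrophage core list 18 of 29 genes had enough UMIs, and 14 of them were at least 2-fold higher in KO and none lower. The filter of 30 UMIs pools both libraries, and these members held 73472 UMIs in WT and 153130 in KO. Genes therefore entered this count, and the counts and rankings that follow, more readily through KO. Of the core genes below the filter, Aif1 was lower in KO (5 and 4 UMIs, ratio 0.384), and the others with a ratio were higher. The core list's summed level was 8630 CPM in WT and 20000 CPM in KO, a ratio of 2.32. Over all members, deep ones included, it was 4680 and 6190 CPM, a ratio of 1.32, with 9 of 22 genes at least 2-fold higher and 1 lower. In members of at most 5000 UMIs Dock2 (196 WT and 820 KO UMIs) and Zeb2 (153 and 744) gave much of the list's 634 and 3059 UMIs. Part of this sum is not particular to macrophages. Other nuclei with at least 2 UMIs of lymphocyte genes had Dock2 at 2310 CPM in WT and 2630 CPM in KO. All members had it at 1350 and 1500 CPM. Ptprc was at 588 and 627 CPM in those lymphocyte-marker nuclei, against 447 and 532 CPM in all members. In members of at most 5000 UMIs smooth muscle genes went the other way from the core list. They were at 6080 CPM in WT members and 1480 CPM in KO members, and mesothelial genes at 1710 and 451 CPM. Over all members, deep ones included, mesothelial genes were higher in KO (1350 and 1710 CPM) and smooth muscle genes again lower (6910 and 3580 CPM). In other nuclei of at most 5000 UMIs smooth muscle genes were at 10600 and 8400 CPM, and the core list at 1030 and 1680 CPM.

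The size of that gap differed with the number of rule UMIs. At exactly 2 rule UMIs the macrophage core list was at 5800 CPM in 22 WT members and 19600 CPM in 18 KO members, with smooth muscle genes at 7780 and 600 CPM. At 4 or more rule UMIs it was at 11200 CPM in 20 WT and 20800 CPM in 87 KO members, with smooth muscle genes at 5300 and 1350 CPM. At exactly 3 rule UMIs, with 4 WT and 16 KO members, the core list was at 9880 and 15500 CPM, but smooth muscle genes were at 0 and 2810 CPM. The core list was thus lower in WT at all 3 levels, and smooth muscle genes were higher in WT at 2 of the 3. The part of this mixture in the ratios that follow was not tested.

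**Figure D2:**
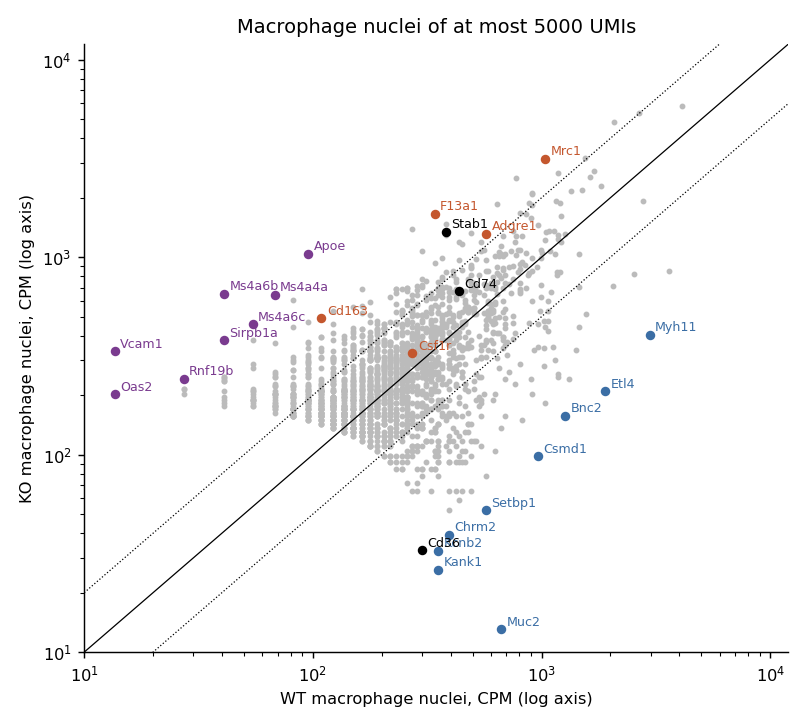
Level of each gene in macrophage nuclei of at most 5000 UMIs, WT library (x) against KO library (y), in CPM on log axes; grey points are genes with at least 30 UMIs and at least 1 in each library, the solid line is equality and the dotted lines are 2-fold. Rule genes are orange, the 8 highest KO to WT ratios purple, the 8 lowest and Myh11 blue, and other list genes black; Cd36, at 299 and 32.7 CPM, lies among the genes lower in KO.

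The rule genes differed unequally between the libraries in these members. F13a1 was at 340 CPM in WT (220 to 502) and 1650 CPM in KO (1450 to 1870), Cd163 at 109 (47 to 215) and 490 (385 to 614), and Mrc1 at 1030 (815 to 1290) and 3150 (2880 to 3450). Adgre1 was at 572 and 1310 CPM. Csf1r was at 272 (166 to 420) and 327 CPM (242 to 430), with overlapping intervals and a ratio of 1.2 (0.701 to 2.13). Over all members the Csf1r ratio lay on the other side of 1, at 133 CPM in WT and 100 CPM in KO. As genes of the rule these levels are a description.

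The 8 genes with the highest KO to WT ratios among these members were Vcam1, Ms4a6b, Oas2, Apoe, Ms4a4a, Sirpb1a, Rnf19b and Ms4a6c. Apoe, the lipid carrier that macrophages secrete, had 7 UMIs in 6 WT members and 159 UMIs in 64 KO members, 95.3 against 1040 CPM, a ratio of 10.9 (5.17 to 27.5). In other nuclei of that depth the Apoe ratio was 1.58. The MS4A membrane proteins Ms4a4a and Ms4a6b had 5 and 3 UMIs in WT and 99 and 100 in KO, ratios of 9.5 (3.94 to 29.9) and 16 (5.32 to 78.9). The adhesion molecule Vcam1 had 1 UMI in WT and 51 UMIs in 36 KO members, and its ratio of 24.5 has an interval from 4.2 to 985. With the rule applied to nuclei thinned to 500 UMIs, Vcam1 had 0 UMIs in 18 WT and 14 UMIs in 83 KO members, too few for a ratio. Oas2, an interferon-induced antiviral enzyme, had 1 UMI in WT and 31 in 23 KO members. None of these 8 rested on a single KO nucleus; the largest part in 1 nucleus was 9 of the 37 KO UMIs of Rnf19b. Reads of the similar Ms4a and Sirpb1 genes may have been split between copies.

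The 8 lowest were Muc2, Kank1, Setbp1, Kcnb2, Chrm2, Csmd1, Etl4 and Bnc2, none of them a macrophage gene. In WT members they were at 0.601 to 2.18 times their level in other nuclei and in KO members at 0.0279 to 0.33 times. Of the 49 WT UMIs of Muc2, the goblet cell mucin, 45 were in 1 nucleus, and of the 71 of Csmd1, 65 were. Chrm2, the muscarinic receptor of smooth muscle, had 29 UMIs in 6 WT members, 21 of them in 1, and 6 UMIs in 3 KO members.

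The list for complement and the uptake of debris is given without the rule gene Mrc1. It was at 1950 CPM in WT and 5430 CPM in KO, a ratio of 2.79, and all 9 of its 19 genes with enough UMIs were at least 2-fold higher in KO. That filter lets genes in more readily through KO, so the count is not read as a shared direction. Below it, Itgax had a ratio of 0.48 and Axl of 1.26, against 2.72 for C3ar1 and 11 for Fcgr4. Over all members the list was at 1040 and 1700 CPM, a ratio of 1.64, with 6 of 12 genes higher and 1 (the integrin Itgax, 0.283) lower. Mertk, a receptor for apoptotic cells, was at 367 and 993 CPM, Stab1 at 381 and 1350 CPM, and Itgam at 163 and 692 CPM. Over all members the ratios of Mertk, Stab1 and Itgam were 1.37, 1.98 and 3.1. The inhibitory Fc receptor Fcgr2b was at 81.7 and 444 CPM. C1qa, a chain of the first complement component, had no UMI in 46 WT members and 33 UMIs in 23 KO members, which makes it at least 5.28-fold higher against a floor of 3 counts over the WT group. Siglec1, a lectin for sialic acid on resident macrophages, had none in WT and 34 UMIs in 25 KO members, at least 5.44-fold higher.

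MHC class II genes differed less. The list was at 1610 CPM in WT and 2410 CPM in KO members, a ratio of 1.5, with 1 of 5 measured genes past 2-fold (H2-Ab1, at 218 and 470 CPM). In other nuclei of that depth the list was at 121 and 197 CPM, a difference at least as large. Cd74, the invariant chain, was at 436 and 673 CPM, and H2-Eb1 at 313 and 503 CPM. Ciita, the master regulator of the class II genes, was at 272 and 183 CPM, with a ratio of 0.672 (0.365 to 1.26). At least 2 UMIs of the list were found in 56.5% of WT and 58.7% of KO members. Over all members the list's ratio was 0.862, on the other side of 1.

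Lysosomal genes were at 2940 and 4750 CPM, with 3 of 7 measured genes past 2-fold and none lower. The cathepsin Ctss was at 150 and 562 CPM and Ctsc at 544 and 1070 CPM. Of the resident and perivascular list 2 of 7 measured genes were past 2-fold, Stab1 and Frmd4b (640 and 1860 CPM), and Rbpj, the transcription factor of Notch signalling, was at 1350 and 2160 CPM. In the lipid list Apoe was past 2-fold and the cholesterol exporter Abca1 was at 531 and 816 CPM.

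Monocyte and inflammation genes were sparse. The monocyte list was at 912 and 1440 CPM in members and differed more in other nuclei of that depth (565 and 1760 CPM). Ccr2 was at 272 and 307 CPM, a ratio of 1.13 (0.655 to 2.01), and 1 of 3 measured monocyte genes was past 2-fold, the integrin Itga4 at 204 and 438 CPM. Ly6c2, which marks blood monocytes, had no UMI in either library. Of the inflammation list, Nfkb1 was at 367 and 503 CPM, and the cytokine Il1b had 1 UMI in WT and 17 UMIs in 5 KO members. The CSF1 axis without the rule gene Csf1r was at 476 and 692 CPM in members and at 269 and 396 CPM in other nuclei. Of its 3 measured genes, 1 was past 2-fold. That gene was the factor Spi1, with 6 UMIs in WT and 34 in KO (81.7 and 222 CPM). Over all members Spi1 was at 49.2 and 53 CPM, a ratio of 1.08. The ligand Csf1 had 1 and 2 UMIs in members. In the repair and growth factor list Pdgfc was at 177 and 392 CPM and fibronectin (Fn1) at 422 and 614 CPM. Fibronectin was below other KO nuclei there (0.411 times). The repair list as a whole was at 966 and 1400 CPM in members and at 780 and 1960 CPM in other nuclei.

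**Figure D3:**
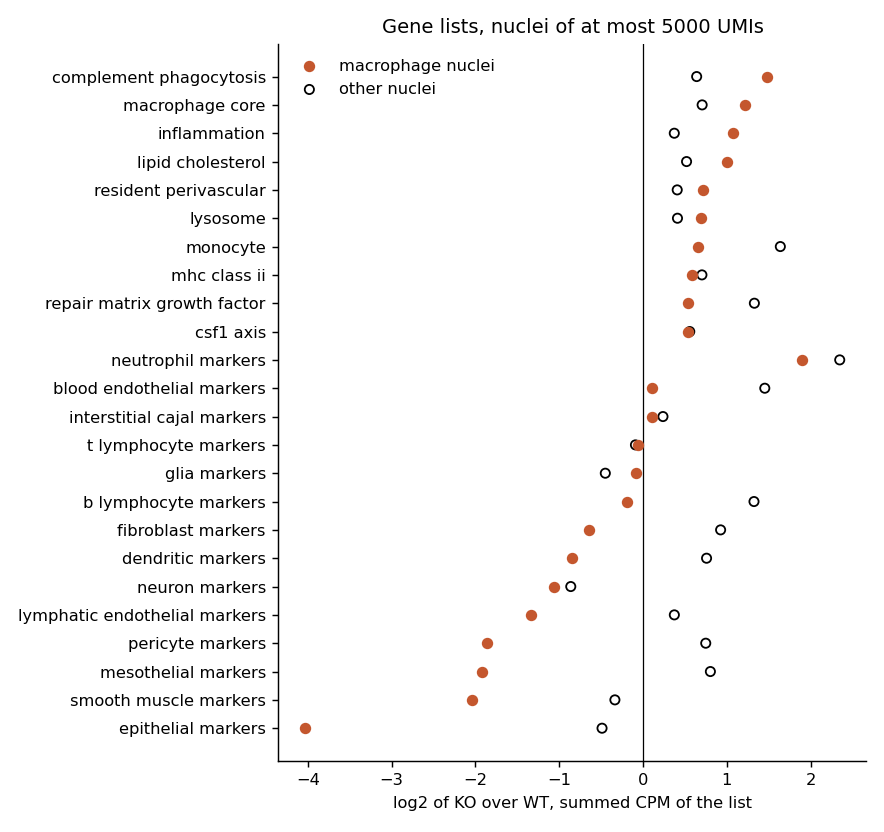
KO over WT ratio of each list's summed CPM on a log2 scale, in macrophage nuclei (filled) and other nuclei (open) of at most 5000 UMIs; each point is 1 pair of libraries with no replicate. Genes of the rule are left out. The 10 lists of macrophage function lie to the right of 0 in macrophage nuclei, as do neutrophil, blood endothelial and interstitial Cajal markers. These 10 lists lie to the right of 0 in other nuclei too. The MHC class II, monocyte, repair and CSF1 lists lie at least as far right there as in macrophage nuclei. In macrophage nuclei the other 11 marker lists with UMIs in both libraries lie to the left, smooth muscle at 6080 and 1480 CPM.

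Shares were also compared at equal depth. With members thinned to 500 UMIs (4 WT and 11 KO members were too shallow), Apoe had a UMI in 3 of 49 WT members (6.12%, interval 1.28 to 16.9) and in 37 of 138 KO members (26.8%, 19.6 to 35). Before thinning these shares were 17% and 57.7%. Stab1 was in 14.3% of WT and 37.7% of KO members, and Aoah in 10.2% and 36.2%, with intervals that do not overlap in either case. Siglec1 was in 0 of 49 WT members, with an upper limit of 7.25%, and in 13% of KO members. Cd74 was in 24.5% and 25.4%, Ccr2 in 14.3% and 11.6%, and Spi1 in 6.12% and 9.42%, with overlapping intervals.

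**Figure D4:**
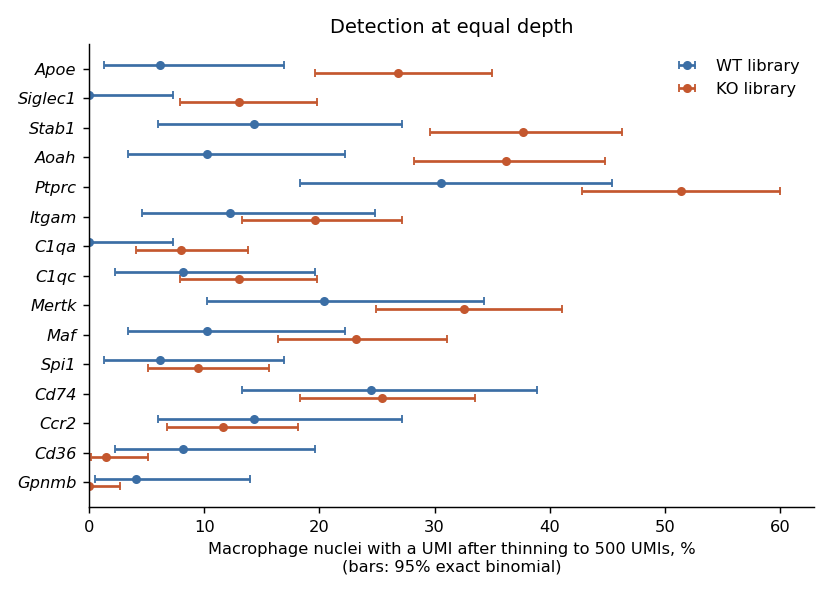
Share of macrophage nuclei with at least 1 UMI of each gene after thinning to 500 UMIs per nucleus, in percent, WT library (blue, 49 nuclei) and KO library (orange, 138 nuclei); bars are 95% exact binomial intervals. Apoe, Stab1 and Aoah are more often seen in KO with intervals that do not overlap, and Cd74 (24.5% and 25.4%) is at nearly the same share.

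The same libraries hold counts over open chromatin regions listed for each library, 35003 in WT and 26493 in KO. Of 55 regions matched between the lists and open in at least 10% of members, 2 (3.64%) were at least 2-fold above other nuclei in both. They lie over Ube2q1 (WT chr3:89773017-89773908, counts in 6 of 53 members and 99 other nuclei) and over Med11 (WT chr11:70451675-70452574, 7 of 53 members and 102 other nuclei), both of them genes in general use. Of the rule genes, only Mrc1 had a listed region within 1 kb of its start, in WT, at chr2:14228991-14229846. It had counts in 1 of 53 members (1.89%) and 20 other nuclei (0.718%). The KO list held no region within 1 kb of the start of any rule gene. Access at the promoters shown above could therefore not be compared between the libraries at this depth.

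The bulk colon libraries measured the same genes in samples that the rule did not use, with 3 libraries per genotype and 25849027 to 41913833 counts each. In bulk tissue, fewer macrophages and less RNA per macrophage cannot be told apart. Of 20886 genes tested with edgeR's quasi-likelihood test, 81 (0.388%) had an adjusted p below 0.05, and none of the 136 genes on the macrophage lists was among them. At an unadjusted p below 0.05 there were 44 of these 136, against 14.5% of all genes. DESeq2 called 7 of them higher and 8 lower, and limma voom none. The share of all genes that DESeq2 called is not reported here, so its count is not read as a result about the lists. The groups of 3 did not overlap for 17 list genes higher in the libraries labelled KO (8.79% of all genes did so) and for 18 lower (10.4% of all genes).

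The library labelled KO t4 stood apart in immune genes. Neutrophil genes summed to 718 CPM there, 23.7 in m1 and 8.74 in t6, against 10.4, 41.5 and 5.93 in WT t1, t6 and t7. The inflammation list had a median log2 difference of 3.32 with that library, and 0.02 without it. The median over all macrophage list genes was 0.34 with t4 and -0.25 without it, so no direction is read from that median.

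Of the rule genes none passed the test. Csf1r was at 97.9, 212 and 78.5 CPM in the libraries labelled KO m1, t4 and t6 and at 78.2, 99 and 113 CPM in WT t1, t6 and t7. The groups overlapped (log2 difference 0.42, SE 0.35, edgeR adjusted p = 0.646). Mrc1 was at 61.6, 127 and 27.5 CPM against 52.4, 91.6 and 79.3 CPM (-0.04, SE 0.57, edgeR adjusted p = 0.985). F13a1 was at 27.5, 287 and 11.9 CPM against 27.2, 59.3 and 42.1 CPM. Its log2 difference of 1.34 (SE 0.98, edgeR adjusted p = 0.577) became -1.12 without t4. Adgre1 was at 27.4, 61 and 9.55 CPM against 27.6, 41.4 and 40.1 CPM. Cd163 was at 37.1, 86.1 and 38.1 CPM against 22.6, 34 and 25.1 CPM, the single rule gene whose groups did not overlap (0.98, SE 0.45, edgeR adjusted p = 0.353). The share of macrophage nuclei was 4.7-fold higher in the KO nuclei library. Mean bulk levels of Csf1r, Mrc1 and Adgre1 had no counterpart of that size. F13a1 (109 CPM in the libraries labelled KO against 42.9 CPM in WT) and Cd163 (53.8 against 27.2 CPM) were higher on average, also by less than 4.7-fold. A share of nuclei and a level in tissue RNA are different measures.

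Cd36, which was lower in KO macrophage nuclei, was also lower in the bulk libraries labelled KO. It was at 18.8, 13.1 and 8.74 CPM in m1, t4 and t6 and at 63.5, 45.6 and 44.4 CPM in WT t1, t6 and t7, and every library labelled KO was below every WT library. The log2 difference was -1.92 (SE 0.53), with an edgeR adjusted p of 0.151 and a DESeq2 adjusted p of 0.00965. Endothelial and fat cells make Cd36 too, and the bulk counts do not say which cells it came from.

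Of the 8 genes highest in KO macrophage nuclei, 7 were higher on average in the bulk libraries labelled KO, with t4 included. So were 50.3% of all genes and 90 of the 136 macrophage list genes. None of the 8 passed the edgeR test. Among the libraries labelled KO, t4 had the highest level of Apoe, Ms4a4a, Rnf19b, Sirpb1a, Ms4a6b and Ms4a6c. Apoe was at 1233, 1639 and 1370 CPM against 881, 704 and 983 CPM (0.72, SE 0.33, edgeR adjusted p = 0.342). Ms4a4a was at 4.39, 37 and 6.1 CPM against 1.54, 1.98 and 1.6 CPM (3.21, SE 0.9, edgeR adjusted p = 0.154, DESeq2 adjusted p = 0.00262). Its log2 difference was 1.62 without t4. Rnf19b, an E3 ubiquitin ligase, was at 56.9, 101 and 73.8 CPM against 50.9, 51 and 45.8 CPM. In these 3 genes the groups did not overlap. Oas2 was at 5.6, 5.34 and 1.44 CPM against 4.63, 6.59 and 5.54 CPM, and Sirpb1a, Vcam1, Ms4a6b and Ms4a6c overlapped too. The difference of Sirpb1a, 0.79 by edgeR, was -1.08 by limma voom. Of the 8 genes lowest in KO nuclei, 4 were lower on average in the libraries labelled KO (Chrm2, Bnc2, Kcnb2 and Etl4) and 4 higher (Muc2, Csmd1, Kank1 and Setbp1). Chrm2 passed the test, at 90.5, 87.1 and 75.3 CPM against 229, 185 and 277 CPM (-1.45, SE 0.26, edgeR adjusted p = 0.0433), with every library labelled KO below every WT library. That call was lost when any 1 of the 6 colon libraries was left out (-1.56 to -1.27).

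Several genes of the resident and perivascular list had lower levels in the libraries labelled KO, none past the edgeR test. Of its 20 genes, 9 had groups that did not overlap on the lower side, as 10.4% of all genes did. On the higher side there was 1, against 8.79% of all genes. The 9 include Cd36, Wwp1 and Frmd4b. Wwp1 had a UMI in 36.3% of WT smooth muscle-marker nuclei and Frmd4b in 23.9%, so neither is particular to macrophages here. The list median was -0.37 against 0.004 over all genes. The median was below 0 in all 12 alternative fits, from -0.93 without t4 to -0.18. The lectin Mgl2 was at 5.43, 0.798 and 0.886 CPM against 12.1, 13.9 and 15.1 CPM (-2.52, SE 0.76, edgeR adjusted p = 0.176). The folate receptor Folr2 was at 3.32, 7.67 and 4.66 CPM against 9.05, 12.2 and 12.2 CPM. Cd209f and Cd209g, lectins of the DC-SIGN family, had log2 differences of -2.53 and -3.39 from low levels. These 4 genes were barely seen in macrophage nuclei of at most 5000 UMIs. Mgl2 had 0 WT and 4 KO UMIs, Folr2 2 and 0, Cd209f 3 and 2, and Cd209g 2 and 1. Stab1 (157, 262 and 140 CPM against 149, 128 and 151) and Lyve1 (67.1, 82.1 and 106 against 84.4, 63 and 63) overlapped. Products of alternatively activated macrophages, outside that list, did not share a direction. Retnla was at 4.58, 0.278 and 1.27 CPM against 14.8, 33.4 and 20 CPM. Chil3 was at 18.9, 485 and 0.785 CPM against 0.124, 0.055 and 0.312 CPM (10.07, SE 2.7, edgeR adjusted p = 0.146, DESeq2 adjusted p = 0.000491). Arg1 was at 3.34, 357 and 0.912 CPM against 1.54, 1.02 and 1.17 CPM, and the groups overlapped. Chil3 and Arg1 were highest in t4.

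MHC class II genes all had negative differences in bulk colon, 7 of 7, in each of the 13 fits, with a median of -1.16 and none past the edgeR test. H2-Aa was at 184, 32.9 and 82.1 CPM in the libraries labelled KO and 181, 453 and 208 CPM in WT (-1.49, SE 0.71, edgeR adjusted p = 0.372), and the groups overlapped. Genes of dendritic cells, which also present antigen, had a list median of -1.32, with 1 of 10 past the test. The cholesterol exporters Abca1 (309, 350 and 337 against 129, 163 and 166 CPM) and Abcg1 (43.8, 36.9 and 60.1 against 20.7, 20.4 and 24.3 CPM) were higher in every library labelled KO than in any WT library. The edgeR adjusted p was 0.148 for Abca1 and 0.151 for Abcg1, and DESeq2 gave 0.0209 and 0.0287. The ligand Csf1 was at 59.7, 91 and 40.1 CPM against 63.5, 57.8 and 77.6 CPM, and the groups overlapped.

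**Figure D5:**
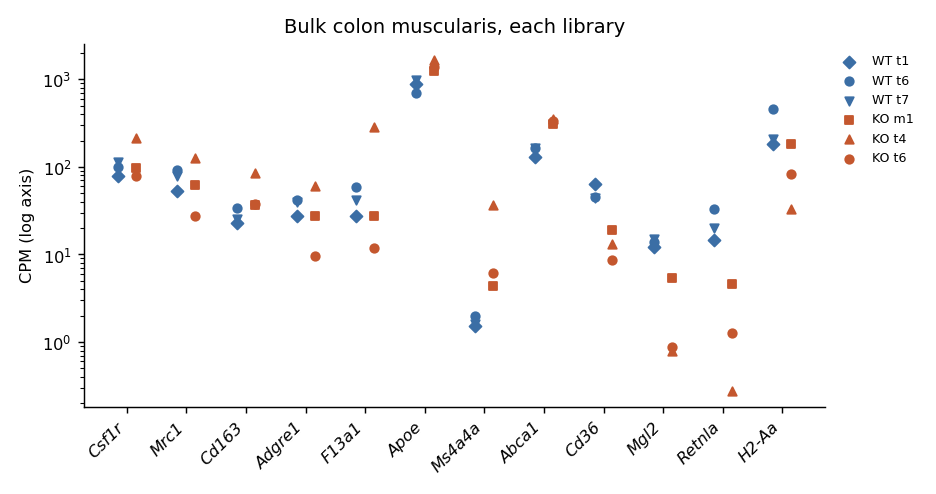
Bulk colon level of 12 genes in each of the 3 WT libraries (blue) and the 3 libraries labelled KO (orange), in CPM on a log axis. Each symbol is 1 library. All are macrophage list genes except Ms4a4a, which was among the 8 genes highest in KO macrophage nuclei. Cd36, Mgl2 and Retnla are lower in each library labelled KO than in any WT library, and Cd163, Apoe, Ms4a4a and Abca1 higher. The triangle of t4 stands above the others for F13a1 (287 CPM).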

How the data were processed

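Nuclei from flash-frozen colon muscularis were profiled with 10x Genomics kits, per the labels' protocols, and 12 bulk RNA libraries were made from total RNA. The submitters' processing notes name STAR 2.0.4b, Subread, featureCounts 1.4.5, edgeR and Cell Ranger, with GRCm38 and mm10, and give them no order. The deposited files hold whole-number counts per gene (and per open region) in each nucleus, and counts per gene in each bulk library. All 3626005 WT and 2733205 KO gene values of the nuclei files were even, and they were divided by 2 to give UMIs; region counts were used as deposited.

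The members and gene lists were chosen with earlier results of these data known. Named genes were, by rule, the 5 rule genes, the 20 highest macrophage to other ratios (by the lower of both libraries, at least 30 UMIs), the 8 highest and 8 lowest KO to WT ratios, the most abundant genes of each list, bulk list genes past the threshold, and regions near rule genes. The same ratios in members of at most 5000 UMIs were added after seeing the data. Other genes of the lists (Siglec1, C1qa, Cd36, Mgl2, Folr2, Cd209f, Cd209g, Retnla, Abcg1, Ciita, Il1b, Chil3, Arg1, Itgax) were named after their values were seen. Summed levels of the complement and CSF1 lists leave out their rule genes. A ratio against 0 UMIs used a floor of 3 counts over the group. Thinning drew 500 UMIs per nucleus without replacement. Doublets were not removed; scrublet (in scanpy 1.11.5, expected 6%) marked 1 WT nucleus (0.035%) and 183 KO nuclei (10.8%), 32 of them members and 19 of these above 5000 UMIs. Without the called nuclei the shares were 1.87% and 7.73%.

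In bulk, 276 repeated gene identifiers were dropped, genes were kept by edgeR's filterByExpr, and edgeR 4.0.16 (TMM factors, robust quasi-likelihood test over all 12 libraries, KO minus WT in colon, Benjamini-Hochberg adjustment) gave the log2 differences and SEs. Counting is not stated to use strand. Replicates are separately labelled samples with no stated animal, so p-values measure the spread between these samples. On simulated counts for 20886 genes the test was checked with 200 changed genes. DESeq2 1.42.0, limma 3.58.1, other scalings, no filter, the colon libraries alone and each library left out were tried. Jejunum libraries entered only the shared estimate of spread. Promoters came from RefSeq (GRCm38.p6), in a set that held no windows for Csf1r and Adgre1. Single values of some list genes are not reported here.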

Additional observations from a re-analysis of the deposited data

How the results depend on the processing

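The KO share of macrophage nuclei was above the WT share under each of the 14 alternatives run. With at least 1 rule UMI the shares were 4.19% in WT and 14.7% in KO, with at least 3 UMIs 0.987% and 7.43% (ratio 7.53), with 2 different genes 1.3% and 7.43%, without Mrc1 1.09% and 6.54%, and thinned to 500 UMIs 0.682% and 5.21% (ratio 7.63). The KO share was 7.13% counting only members of at most 5000 UMIs and 6.9% without members that have smooth muscle markers. Genes at least 2-fold higher and lower in KO, 549 and 273 over all members, were 306 and 170 without members with lymphatic markers, 304 and 148 without epithelial markers, 240 and 165 without smooth muscle markers, 45 and 9 after thinning, 1263 and 882 from 10 UMIs, 152 and 53 from 100 UMIs, and 932 and 123 per nucleus; 283 were higher in members of at most 5000 UMIs. Genes at least 4-fold above other nuclei, 135 in all, were 206 from 10 UMIs and 49 from 100 UMIs. Open regions were 0 when at least 20% of members were required. Leaving out epithelial- or smooth muscle-marker members, deep members, shared barcodes, members without outside markers, and the top nucleus per gene were alternatives chosen after seeing the data. The log2 KO to WT ratio changed sign for Galntl6 (-0.559), Ralyl (-0.514) and Csmd1 (0.0929) with 1 rule UMI, for Dpp6 (-0.234) and Galntl6 (-1.82) without lymphatic markers, for Dpp6 (-1.79) without epithelial markers, and for Csmd1 after thinning (0.38) and without smooth muscle markers (1.06). After thinning, Vcam1 (14 UMIs in KO) and Siglec1 (17 UMIs in KO) had 0 UMIs in WT, too few to give a ratio. Without called doublets the log2 ratio was 2.17 for Mrc1 and 0.683 for Csf1r. The causes were not tested.

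In bulk colon, DESeq2 called 7 macrophage list genes higher and 8 lower where edgeR called 0. Its share over all genes is not reported here. By limma voom the log2 difference changed sign for Sirpb1a (-1.08), Kank1 (-0.02) and Setbp1 (-0.01). With each library left out in turn, 0 to 1 list genes were called lower and the list median ran from -0.25 (without KO t4) to 0.53. Over the same fits Csf1r ran from -0.13 to 0.71, Mrc1 from -0.74 to 0.38, Adgre1 from -0.98 to 0.31, F13a1 from -1.12 to 1.92, Muc2 from -0.21 to 1.55, Kank1 from -0.27 to 0.32 and Setbp1 from -0.12 to 0.29, and Etl4 from -0.46 to 0.02. Cd36 stayed negative in every fit, from -2.23 to -1.66. Chrm2 lost its call with total-count scaling (-1.42), in the 6 colon libraries alone (-1.42) and with any 1 of them left out (-1.56 to -1.27). No paired analysis was possible because the KO and WT colon libraries share only 1 tag (t6).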
